A study of Arabidopsis thaliana with 9 samples.

Results

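Plants that overexpressed the transcription regulator SCL15 in their seeds were compared with wild type plants of Arabidopsis thaliana. The comparison used 6 of the 9 libraries of the study, chosen by their labels: 3 from wild type and 3 from SCL15 overexpression. Wild type was the Columbia background without a transgene, and the overexpression plants carried SCL15 behind the promoter of napin, a 2S albumin seed storage protein. All plants grew in a greenhouse with no other treatment, and siliques, the pods together with the seeds inside, were taken 12 days past anthesis. The remaining 3 libraries, of an scl15 knockout, shared the fit across all genes and lent it their spread. The labels do not say how many transgenic lines or plants were used, and seed and pod tissue were not separated. The labels call the replicates biological without naming plants or pots, and a p-value here covers only the differences among such libraries. In such bulk samples, fewer cells of a type and less RNA per cell cannot be told apart.

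SCL15 belongs to the GRAS family of plant transcription regulators, which also holds the DELLA repressors of gibberellin signalling. Arabidopsis embryos fill with 12S globulins, 2S albumins and oil, then make late embryogenesis abundant (LEA) proteins that protect cells during drying, while chlorophyll and photosynthesis decline. Abscisic acid and the factors ABI3, ABI5, LEC1, LEC2 and FUS3 direct this programme, and ABI5-type factors bind an ACGT core in the promoters of many maturation genes. Napin promoters are active in the developing embryo, so the transgene was placed where this programme runs.

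The 250 bases before the annotated start of 4 LEA and dehydrin genes that rose, and of 2 antenna genes that fell, are printed because the results turn on these groups. They are read 5′ to 3′ along the gene from RefSeq's TAIR10.1 assembly, and capitals mark 3 motifs searched on both strands: ACGTG, the core of the abscisic acid response element, CATGCA, the RY element, and GATAAG, the I-box. AT4G36600 encodes a LEA protein, and its window is chr4:17263314-17263563 (plus strand). EM6, a LEA protein of the wheat Em type, has chr2:16780369-16780618 (minus strand). The LEA gene AT3G53040 has chr3:19666498-19666747 (minus strand), and the dehydrin gene AT4G39130 has chr4:18228855-18229104 (minus strand). LHCB2.1 and LHCB1.1, chlorophyll-binding antenna proteins of photosystem II, have chr2:1824481-1824730 (minus strand) and chr1:10475970-10476219 (minus strand).
AT4G36600: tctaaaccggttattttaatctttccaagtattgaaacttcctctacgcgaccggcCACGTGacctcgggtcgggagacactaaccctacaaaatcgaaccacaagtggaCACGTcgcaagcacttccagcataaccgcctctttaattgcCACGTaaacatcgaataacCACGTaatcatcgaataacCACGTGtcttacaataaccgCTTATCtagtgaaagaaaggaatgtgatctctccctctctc
EM6: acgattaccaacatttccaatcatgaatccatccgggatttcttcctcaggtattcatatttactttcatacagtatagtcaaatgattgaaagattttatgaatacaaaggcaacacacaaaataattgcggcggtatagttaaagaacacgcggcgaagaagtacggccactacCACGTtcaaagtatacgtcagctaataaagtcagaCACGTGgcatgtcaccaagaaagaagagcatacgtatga
AT3G53040: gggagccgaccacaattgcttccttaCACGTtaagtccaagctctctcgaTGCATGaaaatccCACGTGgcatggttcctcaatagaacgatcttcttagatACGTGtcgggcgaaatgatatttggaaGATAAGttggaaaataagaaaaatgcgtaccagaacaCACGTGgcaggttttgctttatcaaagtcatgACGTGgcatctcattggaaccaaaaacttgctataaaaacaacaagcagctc
AT4G39130: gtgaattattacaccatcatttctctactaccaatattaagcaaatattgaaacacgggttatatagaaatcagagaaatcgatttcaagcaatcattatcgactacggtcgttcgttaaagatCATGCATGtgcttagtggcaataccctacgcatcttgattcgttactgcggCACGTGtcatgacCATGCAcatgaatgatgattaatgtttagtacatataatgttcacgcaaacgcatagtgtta
LHCB2.1: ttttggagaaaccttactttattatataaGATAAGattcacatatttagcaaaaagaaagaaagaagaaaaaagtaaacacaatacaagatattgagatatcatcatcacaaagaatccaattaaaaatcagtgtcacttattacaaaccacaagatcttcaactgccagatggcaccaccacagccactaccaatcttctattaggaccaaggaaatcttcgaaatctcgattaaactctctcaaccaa
LHCB1.1: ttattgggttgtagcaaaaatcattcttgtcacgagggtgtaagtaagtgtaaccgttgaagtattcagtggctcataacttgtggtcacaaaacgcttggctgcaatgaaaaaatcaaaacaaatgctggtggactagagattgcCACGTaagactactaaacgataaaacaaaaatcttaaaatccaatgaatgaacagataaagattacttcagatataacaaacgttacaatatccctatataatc
The strings ACGTG and CACGT, which overlap where CACGTG is present, occurred 7 times in the AT4G36600 window, 3 times in EM6, 7 times in AT3G53040, 2 times in AT4G39130, 0 times in LHCB2.1 and 1 time in LHCB1.1. GATAAG, on either strand, occurred 1 time each in the AT4G36600, AT3G53040 and LHCB2.1 windows. It occurred 0 times in those of EM6, AT4G39130 and LHCB1.1.

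SCL15 (AT4G36710; TAIR10.1 chromosome 4, 17305758 to 17307648, plus strand, 1 exon) stood at 14.4, 16.2 and 10.7 TPM in wild type replicates 1 to 3 and at 526, 569 and 556 TPM in the overexpression replicates. TPM are length-corrected shares of the transcripts in a library, scaled to 1000000. Every overexpression library was far above every wild type library, and the means differed 39.9-fold. On the log2(TPM + 1) scale the difference was 5.24 (SE 0.15, limma adjusted p = 7.0e-11). Transcripts of the resident gene and of the transgene are counted together in this value. Of its neighbours, HVA22K, which starts 60 bases beyond the end of SCL15, had 9.77, 10.5 and 7.49 TPM in wild type and 7.57, 6.05 and 6.85 TPM in overexpression (log2 difference -0.38, adjusted p = 0.192). The upstream neighbours AT4G36680, U2AF65A and AT4G36700 and the downstream GBF1 were also not past the threshold on both scales used below.

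Storage protein transcripts took a larger share of the library in overexpression siliques, and this sets how every other value is read. The 13 storage protein genes made up 32.0%, 30.2% and 31.8% of all TPM in wild type and 41.0%, 45.5% and 40.9% in overexpression. The means were 31.4% ± 1.01 and 42.5% ± 2.62 (SD, n = 3), a difference of 11.1 percentage points, and the groups did not overlap. Nuclear genes other than storage protein and ribosomal RNA genes took 58.3% ± 0.984 of TPM in wild type libraries and 50.5% ± 1.37 in overexpression libraries. TPM sum to 1000000 in each library, so the shares of different genes cannot move independently. The median of all 16555 genes tested was -0.28 on the log2 scale as deposited, and its cause was not tested. After the libraries were rescaled without the 13 storage protein genes it was -0.07, and with median-ratio scaling it was 0.00. A gene is therefore called a rise or a fall here only where its adjusted p was at most 0.05 with one sign both on deposited TPM and after that rescaling.

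**Figure D1:**
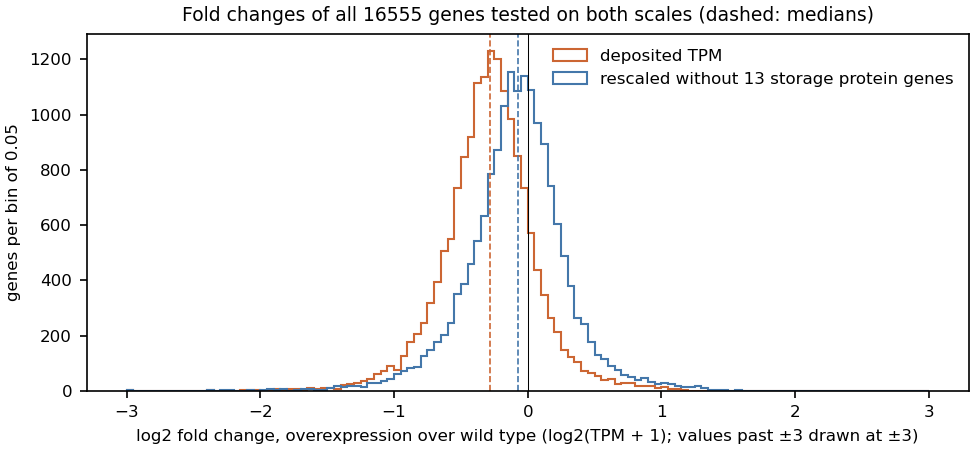
Histogram of the log2 fold change (overexpression over wild type, log2(TPM + 1) scale) of the 16555 genes tested, as deposited (orange) and after rescaling without 13 storage protein genes (blue); the y axis is genes per bin and dashed lines are medians. The whole distribution sat lower on the deposited scale, with a median of -0.28 against -0.07.

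By that rule 277 genes rose (1.67% of those tested) and 926 fell (5.59%), 7.27% in all. Those shares are the background for each count of rises and falls in a list below. Counts at an unadjusted p, printed below for some lists and families, have no such background, because that share of all genes is not given. Such counts therefore cannot show that a list or family differs from all genes. Of the genes tested 29 rose (0.175%) and 383 fell (2.31%) at least 2-fold on deposited TPM. On deposited TPM alone 278 genes were higher (1.68%) and 3871 lower (23.4%), together 25.1%. After rescaling 440 were higher (2.66%) and 926 lower (5.59%), together 8.25%. So 2945 of the lower calls on deposited TPM were not past after rescaling, while 926 of the 926 lower calls on the rescaled values were past on both. The rescaling moved the median of all genes up, from -0.28 to -0.07, so this overlap is no second support. In effect the rescaled fit decided the falls and the deposited fit the rises, 277 of 278. The balance of rises and falls depends on the scaling, and median-ratio scaling alone gave 539 higher and 594 lower. On deposited TPM 43% of genes had no overlap between the libraries of the 2 groups, and that share is the background for each gene said below not to overlap. With the replicate number as a block, 349 genes rose (2.11%) and 1545 fell (9.33%), together 11.4%. Of the 1203 calls 601 were kept without wild type replicate 1, 582 without wild type replicate 3 and 519 without overexpression replicate 2. Those fits had 625, 603 and 537 calls in all among the 16555 genes tested. The fits without wild type replicate 2, overexpression replicate 1 and overexpression replicate 3 had 936, 948 and 1123. These totals are the background for each count without a library below. In each of the 6 fits that left out 1 library 423 of the 1203 were past. Counts below for lists and families without a library are of all calls in that fit. Overexpression replicate 2 also stood apart in composition, with the highest storage share, 3.53% nuclear ribosomal RNA against 5.14% to 7.83% in the other 5 libraries, and 1.46% plastid and mitochondrial transcripts against 1.92% to 3.35%. Between 19679 and 21469 genes were above 0 TPM in these libraries, lowest in overexpression replicate 3, and TPM keep no sequencing depth.

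The difference in storage protein transcripts was unequal between the classes. The 12S globulins, or cruciferins, took 13.85%, 12.96% and 13.55% of TPM in wild type and 20.9%, 23.5% and 20.2% in overexpression, a 1.60-fold difference of the means. The 2S albumins, the family whose promoter drove the transgene, took 17.82%, 16.87% and 17.9% in wild type and 19.6%, 21.4% and 20.1% in overexpression, a 1.16-fold difference. The groups did not overlap for either class. The ratio of 12S to 2S transcripts, which no scaling of a library can alter, was 0.777, 0.768 and 0.757 in wild type and 1.063, 1.102 and 1.005 in overexpression. It was above 1 in each overexpression library and below 0.8 in each wild type library (exact two-sided permutation p = 0.1, the smallest that 3 against 3 can give). For the 11 shares that were compared the exact p was also 0.1 (0.11 after Benjamini-Hochberg adjustment), except nuclear ribosomal RNA at 0.2.

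**Figure D2:**
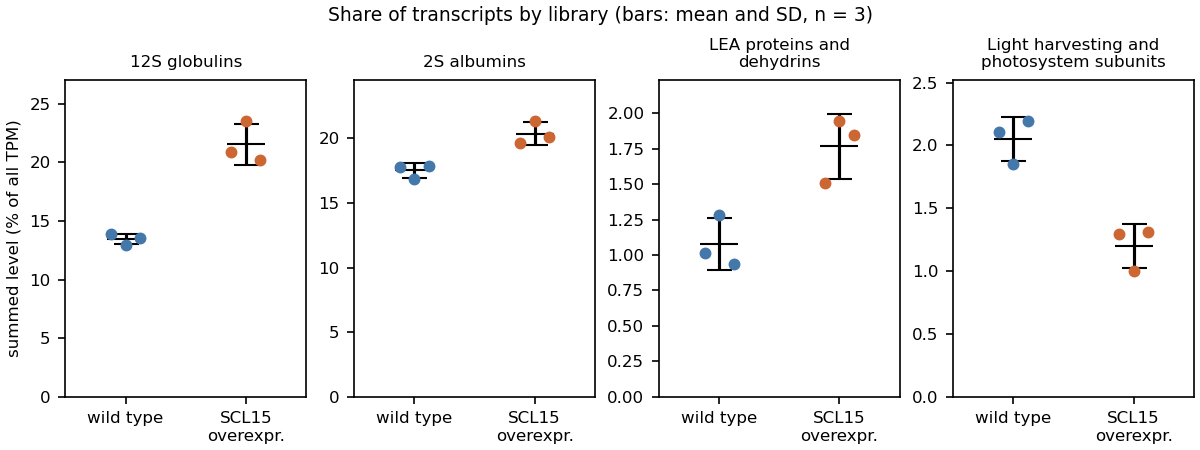
Summed level of 4 groups of genes as a percentage of all TPM (y axis, from 0) in each wild type (blue) and overexpression (orange) library, with mean and SD (n = 3). The 12S globulins averaged 13.5% and 21.6%, the 2S albumins 17.5% and 20.4%, LEA proteins with dehydrins 1.08% and 1.77%, and light harvesting and photosystem subunits 2.05% and 1.203%, with no overlap between the groups.

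Of the 13 storage protein genes 4 rose and 0 fell, and 6 were past as higher with the replicate block. CRC (cruciferin 3) was the most abundant globulin, with 86660, 81930 and 84890 TPM in wild type and 133700, 155500 and 131900 TPM in overexpression. Its groups were far apart, but its log2 difference of 0.73 was just short of the threshold (SE 0.26, adjusted p = 0.0527, and 0.0636 after rescaling). CRA1 had 0.61 and was past on both scales (adjusted p = 0.0497 and 0.0407), a call that ended without any 1 of the 6 libraries. The cruciferin-like gene AT1G03890 and the vicilin-like cupin genes PAP85 and AT2G28490, far less abundant, rose by 0.67, 0.65 and 0.61 and were past without each library in turn. Among the 2S albumins SESA2 averaged 100.2% of its wild type level and SESA3, the most abundant gene of wild type siliques, 125% (log2 difference 0.32, adjusted p = 0.368). By limma 0 of the 5 albumins were past on both scales (1 at an unadjusted p of 0.05), and their reads may be shared between near-identical copies. CRB and SESA5 were past on both scales with the replicate block.

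LEA transcripts formed the group with most rises. Of 25 LEA genes 24 passed the level filter, and 16 rose and 1 fell, against 1.67% and 5.59% of all genes. Their median log2 difference was 0.78 on deposited TPM and 1.04 after rescaling, beside -0.28 and -0.07 for all genes. AT4G36600 had 27.3, 35.4 and 23.5 TPM in wild type and 68.0, 92.5 and 74.9 TPM in overexpression. All overexpression libraries lay above all wild type libraries, with a log2 difference of 1.43 (SE 0.20, adjusted p = 0.000549). EM6 had 389, 496 and 321 TPM against 743, 901 and 923 TPM (1.104, SE 0.20, adjusted p = 0.00264). AT3G53040 had 187, 294 and 183 TPM against 391, 625 and 491 TPM (1.19, SE 0.26, adjusted p = 0.00574), again without overlap. The seed maturation protein gene AT5G53260 rose by 1.149 from a low level, 2.76 to 4.79 TPM in wild type, and its call was lost with 0.1 TPM as the pseudocount (limma adjusted p = 0.119). Further rises that were past without each library in turn were AT2G18340 (1.04), AT3G22490 (1.03), AT5G44310 (0.98), AT1G72100 (0.90), AT4G21020 (0.87), LEA4-5 (0.80), AT3G17520 (0.77) and ECP63 (0.61). EM1 and AT2G42560 rose by 1.02 and 1.00, calls that ended without overexpression replicate 2. AT3G15670 (0.75) and LEA4-1 (0.50) rose too, calls that ended without wild type replicate 1 or 3 or overexpression replicate 2 and, for LEA4-1, replicate 3. M17 was the member that fell (-0.80, and -0.56 after rescaling), a call that ended without any 1 of wild type replicates 1 and 3 and the 3 overexpression replicates. M10 (0.32), AT3G02480 (-0.10), RAB28 (0.30), AT5G53270 (0.50), ECP31 (0.63), LEA7 (0.42) and LEA18 (0.69) were not past on both scales, of which ECP31, LEA7 and LEA18 were past with the block. AT5G27980, at 0 to 1.33 TPM, was below the filter.

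Dehydrins, the LEA proteins also found in cold and dry leaves, divided. Of 9 tested, 4 rose and 0 fell, with a median of 0.19 on deposited TPM and 0.45 after rescaling. AT4G39130 had 10.04, 12.0 and 6.996 TPM in wild type and 18.9, 24.1 and 24.4 TPM in overexpression, without overlap (log2 difference 1.154, SE 0.23, adjusted p = 0.00391). The seed dehydrin gene RAB18 was far more abundant, with 2406, 2881 and 1798 TPM against 3715, 4755 and 4318 TPM (0.87, adjusted p = 0.0143). Its call ended without wild type replicate 3 or overexpression replicate 2, and the dehydrin calls came to 2 without wild type replicate 1, wild type replicate 3 or overexpression replicate 2. The 3 members best known from leaves under cold stress, ERD10, ERD14 and COR47, had -0.60, -0.61 and -0.62 on deposited TPM and -0.35, -0.36 and -0.37 after rescaling. They were past as lower on deposited TPM only, and on both scales with the block.

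The promoter windows of these genes often held the ACGTG core. It was present in 28 of 34 LEA and dehydrin windows (82.4%), in 20 of the 20 whose gene rose, and in 24.6% of the 16396 windows of all genes tested. The core was also present in 9 of 13 storage protein windows (69.2%), though only 4 of those 13 genes rose. Of the 277 genes that rose 49.5% had it, and of the 902 with a window that fell 28.6%. Among the 41 antenna and photosystem windows 15 held it (36.6%), also above the share of all genes, and 11 held GATAAG (26.8%, against 12.6% of all genes). CATGCA, the RY element bound by B3 factors such as ABI3, stood in 11 of 13 storage protein windows (84.6%), in 26.4% of the rises, in 8.31% of the falls and in 7.76% of all genes tested. These are counts of letters and not of bound sites.

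Oil body proteins coat the droplets of seed oil. Of 15 tested, 7 rose and 1 fell, with a median of 0.43 (0.68 after rescaling), and 5 were past without wild type replicate 2 or overexpression replicate 2. The caleosin genes CLO1 and CLO2 rose by 0.48 and 0.50, the oleosin gene AT2G25890 by 0.80, the steroleosin gene HSD5 by 0.42 and OBAP1A, an oil body-associated protein gene, by 0.74, and those 5 were past without each library. OLEO1, the most abundant oleosin gene, had 20960, 17660 and 19940 TPM in wild type and 26500, 25850 and 26170 TPM in overexpression. Its groups did not overlap, yet the log2 difference of 0.43 was not past (adjusted p = 0.116). CLO3, a caleosin known from drought-stressed leaves, fell by 0.83 (0.57 after rescaling), but this call ended without any 1 library other than overexpression replicate 3. HSD1a and HSD1b are near-identical copies, and their values, which varied several-fold within a group, are uncertain. Among the enzymes that make the oil, limma found 0 of 18 plastid fatty acid synthesis genes and 0 of 13 oil assembly genes past on both scales, with medians of -0.06 and -0.08 after rescaling. At an unadjusted p of 0.05 on both, 1 and 3 of them were lower and 0 higher, and with the block FATB and ACP5 of the first list and ROD1 of the second were past as lower on both scales. WRI1, the factor that activates fatty acid synthesis, had 25.3, 24.1 and 30.4 TPM against 26.6, 22.5 and 30.1 TPM.

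Of the 17 maturation factors tested, 3 rose and 0 fell, and those 3 were past without each library. The list's median was -0.06 on deposited TPM, beside -0.28 for all genes, with 6 of 17 above 0. After rescaling the median was 0.19, beside -0.07 for all genes, with 11 above 0. The share of all genes above 0 is not given. ABI3, the B3 factor needed for desiccation tolerance, had 32.6, 32.0 and 33.8 TPM in wild type and 45.6, 60.4 and 49.3 TPM in overexpression (log2 difference 0.63, adjusted p = 0.00503). ABI5, a bZIP factor of abscisic acid signalling, had 22.0, 27.3 and 18.9 TPM against 35.0, 44.0 and 42.2 TPM (0.81, adjusted p = 0.00686). HSFA9, the seed heat shock factor, had 7.37, 12.0 and 6.14 TPM against 13.7, 16.95 and 19.6 TPM (0.94, adjusted p = 0.00739). The groups did not overlap for any of these 3 genes. FUS3 (0.17), ABI4 (-0.28), EEL (-0.06), bZIP67 (0.09) and LEC1 (-0.50) were not past, and LEC2, at most 0.636 TPM, was below the filter. L1L, a LEC1 relative of the embryo, had 31.5, 21.9 and 42.6 TPM against 16.7, 13.99 and 18.3 TPM, and was past as lower on deposited TPM (-0.89, adjusted p = 0.0150) but after rescaling only with the block. Among small heat shock protein genes HSP17.4 had 243, 364 and 206 TPM in wild type and 486, 605 and 590 TPM in overexpression (1.08, adjusted p = 0.00712). Of 12 heat shock genes tested 4 rose and 0 fell, and HSP17.4 was the 1 left without wild type replicate 1, wild type replicate 3 or overexpression replicate 2, and 2 were left without overexpression replicate 3.

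Dormancy genes rose as well, 5 of 9 tested, with 0 lower and a median of 0.57 (0.83 after rescaling). DOG1, the main dormancy gene of natural accessions, had 37.1, 44.2 and 45.7 TPM in wild type and 55.0, 66.9 and 80.5 TPM in overexpression (log2 difference 0.65, adjusted p = 0.00994). Its relative DOGL2 had 37.5, 43.7 and 30.7 TPM against 75.9, 75.0 and 73.2 TPM (0.998, adjusted p = 0.00192), at nearly one level in the overexpression libraries. RDO5, a phosphatase-like dormancy protein, had 8.49, 10.4 and 5.89 TPM against 14.01, 15.9 and 13.7 TPM (0.77, adjusted p = 0.00820). The overexpression libraries were the higher for all 3, without overlap. DOGL3 and DOGL4 rose by 0.71 and 0.57, but the first call ended without any 1 library and the second without wild type replicate 2 or overexpression replicate 3, and the count was then 3. HUB1 and HUB2, histone ubiquitin ligases, had -0.07 and 0.06.

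Of 21 abscisic acid receptor, phosphatase and kinase genes tested 1 rose and 2 fell. Their median was -0.43 on deposited TPM and -0.19 after rescaling, beside -0.28 and -0.07 for all genes. On either scale 3 of 21 lay above 0, and that share of all genes is not given. On deposited TPM 10 were past as lower, against 23.4% of all genes. At an unadjusted p of 0.05 on both scales 6 were lower and 1 higher. AHG1, a seed phosphatase that restrains abscisic acid signalling and is known to bind DOG1, had 23.0, 29.9 and 20.0 TPM in wild type and 46.7, 51.1 and 36.6 TPM in overexpression (log2 difference 0.86, adjusted p = 0.00521). HAI1, a phosphatase of the same clade, moved the other way, with 167, 152 and 174 TPM against 99.0, 76.9 and 97.2 TPM (-0.85, adjusted p = 0.000612, and 0.00498 after rescaling). Neither gene's groups overlapped. The other fall of this list was the receptor gene PYL8, whose call ended without wild type replicate 2 or overexpression replicate 1 or 2. Among 11 synthesis and breakdown genes 0 rose and 1 fell, NCED3 (-0.85), a call kept without overexpression replicate 2 and lost without any 1 of the other 5 libraries. With the block 3 fell, ABA1 and AAO4 being added, and the list's median was -0.11 on deposited TPM and 0.10 after rescaling. No gene of gibberellin synthesis and inactivation (9 tested), of gibberellin reception with the DELLA genes (9 tested), of Polycomb repressive complex 2 (6 tested) or of the list of GRAS relatives and chromatin regulators (20 tested) was past on both scales by limma. At an unadjusted p of 0.05 on both, the lower genes numbered 1, 2, 0 and 0 and the higher 0 in each of these lists. The F-box gene AT4G24210 (SLY1), which marks DELLA proteins for breakdown, was past as lower with the block.

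**Figure D3:**
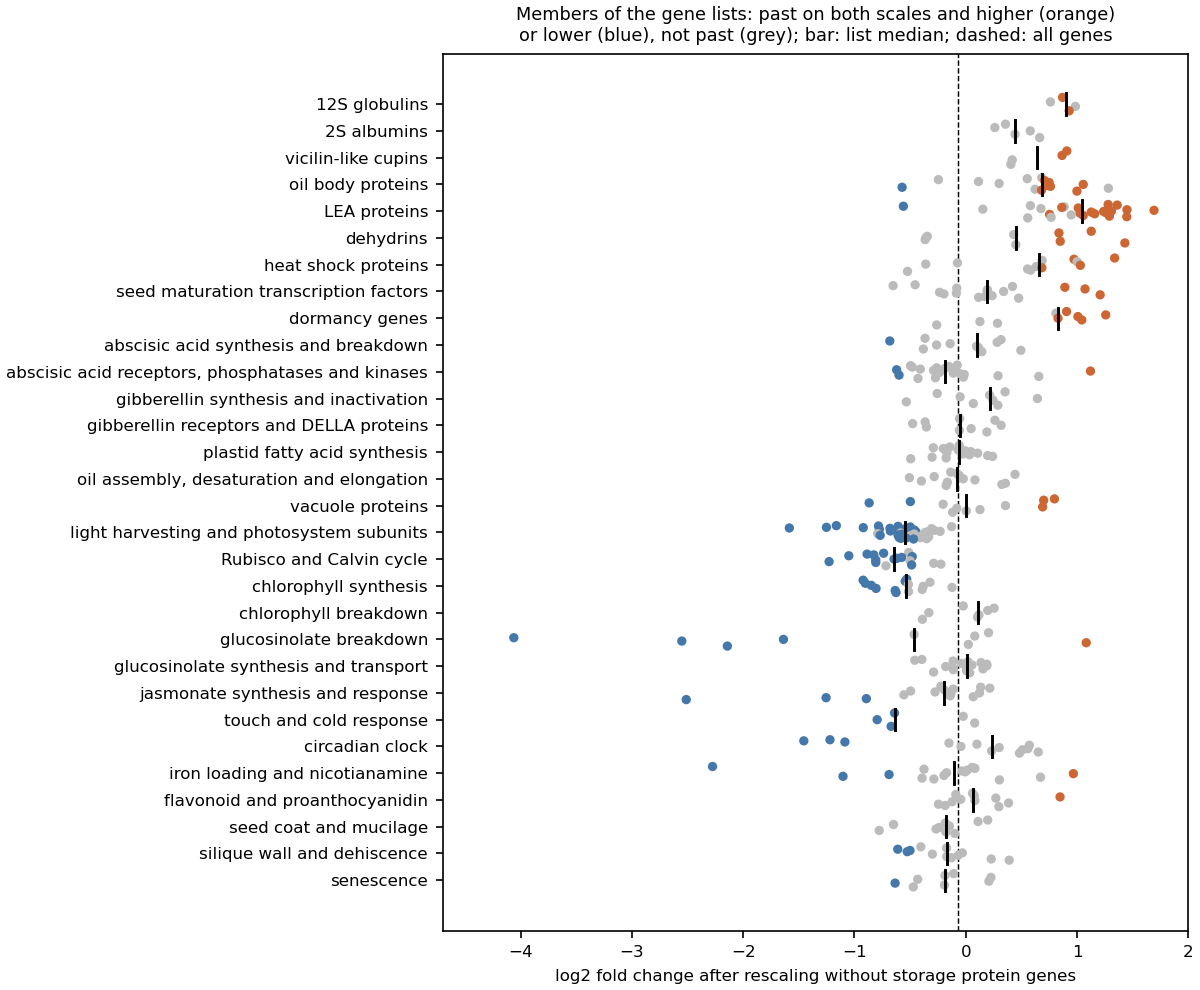
Members of 30 of the 37 gene lists (y axis) by log2 fold change after rescaling without storage protein genes (x axis), coloured orange where past and higher on both scales, blue where past and lower, grey otherwise; black bars are list medians and the dashed line the median of all genes (-0.07). LEA, dormancy and 12S globulin medians lay at 1.04, 0.83 and 0.90, and the photosynthesis lists at -0.55, -0.64 and -0.54.

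Photosynthesis transcripts fell. Of 41 antenna and photosystem subunit genes, encoded in the nucleus, 25 fell and 0 rose, against 5.59% and 1.67% of all genes. Their median was -0.80 on deposited TPM and -0.55 after rescaling. LHCB2.1 had 999.8, 773 and 967 TPM in wild type and 375, 253 and 341 TPM in overexpression, without overlap (log2 difference -1.51, SE 0.16, adjusted p = 1.0e-04; -1.25 after rescaling, adjusted p = 0.000482). LHCB1.1 had 449, 350 and 450 TPM against 184, 117 and 171 TPM (-1.42, adjusted p = 0.000171). LHCB1 and LHCB2 members are near-identical copies that may share reads. LHCB5 (-1.03), another antenna protein, and the photosystem II subunits PSBQ1 (-1.01) and PSBY (-0.85) fell and were past without each library. PSAD1 (-0.49) and LHCA2 (-0.54) were past on deposited TPM but not after rescaling (-0.23 and -0.28), also with the block. The number of falls rose to 38 with the block, by which 9.33% of all genes fell. It was 11 without wild type replicate 1, 9 without wild type replicate 3, 15 without overexpression replicate 1 and 8 without overexpression replicate 2.

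In the Calvin cycle, which fixes carbon dioxide, 12 of 17 genes fell and 0 rose, with a median of -0.90 (-0.64 after rescaling). RCA, the activase of Rubisco, had 952, 814 and 886 TPM in wild type and 414, 304 and 360 TPM in overexpression (-1.30, SE 0.13, adjusted p = 6.95e-05). FBA1, a plastid aldolase, had 118, 88.4 and 125 TPM against 43.8, 29.6 and 44.6 TPM (-1.47, adjusted p = 0.000159). Both sets of libraries were apart. RBCS1A, the most abundant Rubisco subunit gene with 4799 TPM in wild type and 2813 TPM in overexpression, was not past after rescaling (adjusted p = 0.111) except with the block. The count was 7 without wild type replicate 1 or overexpression replicate 2. Chlorophyll synthesis showed 8 falls among 14 genes tested, CHLH (-1.12), GUN4 (-1.14), CRD1 (-1.10) and the regulator GLK2 (-0.87) among them, and 5 without wild type replicate 3. Of 7 chlorophyll breakdown genes 0 were past on both scales by limma (1 lower at an unadjusted p of 0.05, and RCCR lower with the block), and NYC1, a chlorophyll b reductase, averaged 138 and 132 TPM. Transcripts of plastid and mitochondrial genes fell for 21 of 104 tested and rose for 0. This count was 11, 10 and 3 without wild type replicates 1 to 3. It was 37, 3 and 10 without overexpression replicates 1 to 3, and 41 with the block. The labels name both an mRNA and a total RNA library kit, and whether organelle levels moved with the kit was not tested. CAT2, the leaf catalase of photorespiration, fell from 181 to 90.3 TPM (-0.996, adjusted p = 0.000287), while CAT1 and CAT3 had -0.01 and -0.05.

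The 12 rises of largest size included 1 that stood alone. AT3G01345, annotated as an expressed protein (TAIR10.1 chromosome 3, 129138 to 130749, plus strand, 1 exon), had 6.92, 7.73 and 10.8 TPM in wild type and 92.7, 82.9 and 82.0 TPM in overexpression. It was 10.11-fold higher, with a log2 difference of 3.21 (SE 0.16, adjusted p = 7.52e-08), and the next rise was 1.43. The other 11 lay between 1.08 and 1.43. Outside the LEA, dehydrin and heat shock lists they were PCR1 (1.28), named for cadmium resistance, RAP2-9 (1.19), an AP2/ERF factor, CYP77A6 (1.14), a cytochrome P450 of cutin synthesis, XTH25 (1.11), a xyloglucan endotransglucosylase of the cell wall, and AT2G05580 (1.098). RAP2-9 had 26.0, 29.0 and 16.5 TPM against 44.3, 65.9 and 54.1 TPM. XTH25 was abundant, with 677, 738 and 483 TPM against 1256, 1366 and 1426 TPM, and AT2G05580, a glycine-rich protein gene, more so, with 4544, 4496 and 3792 TPM against 7754, 10910 and 8992 TPM. All 12 were past without each library in turn, and groups without overlap were a condition for naming them. After rescaling 163 more genes were past as higher, among them BGLU19, a beta-glucosidase gene with 832, 893 and 545 TPM against 1188, 1717 and 1088 TPM, and its neighbour JAL36, a lectin gene (0.82 and 0.72 on deposited TPM), both of which were past on both scales with the block.

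**Figure D4:**
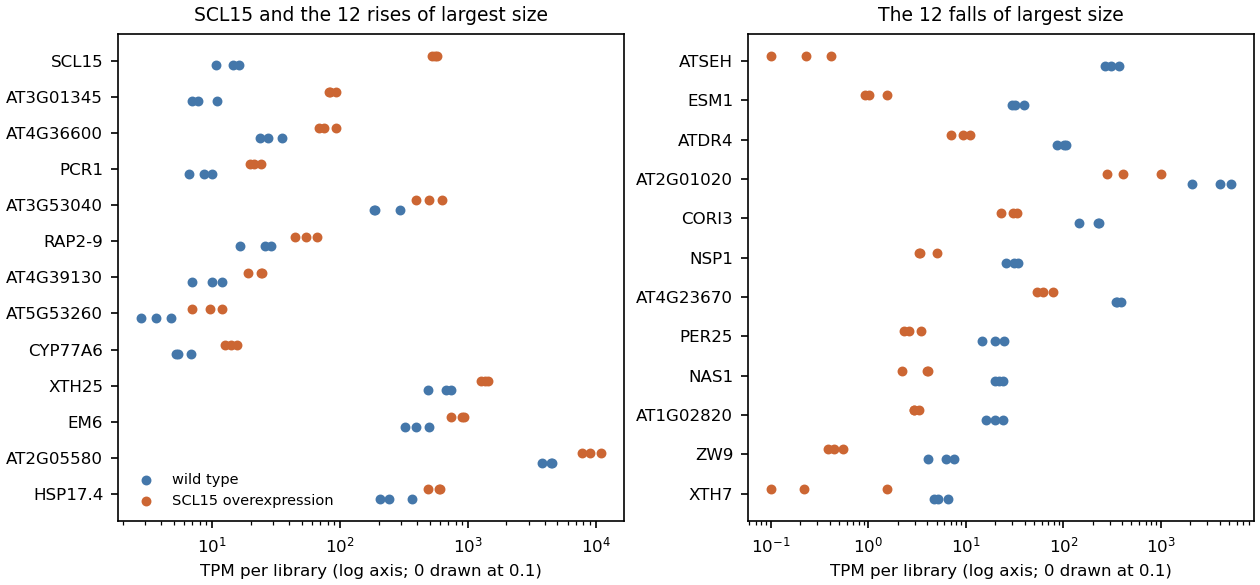
TPM in each wild type (blue) and overexpression (orange) library, on a log axis with 0 drawn at 0.1, for SCL15 with the 12 rises of largest size (left) and for the 12 falls of largest size (right). Genes other than SCL15 were chosen among those whose groups did not overlap, and ATSEH lay at 269 to 373 TPM in wild type and at most 0.409 TPM in overexpression.

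The fall of largest size was ATSEH (AT2G26740; TAIR10.1 chromosome 2, 11392849 to 11394363, minus strand, 3 exons), a soluble epoxide hydrolase, an enzyme that adds water to epoxides. It had 310, 373 and 269 TPM in wild type and was listed at 0, 0.409 and 0.232 TPM in overexpression, a log2 difference of -8.04 (SE 0.16, adjusted p = 1.5e-12). It averaged 181 TPM in the knockout libraries. The adjacent gene AT2G26750, 1343 bases away and annotated in the same hydrolase superfamily, had 0.417, 0.244 and 0.401 TPM in wild type and 0.785, 0.917 and 0.909 TPM in overexpression. Those values were below the level filter, and the tested genes on either side, AT2G26730 (-0.35, adjusted p = 0.207) and SCAB1 (-0.02, adjusted p = 0.953), were not past. Of the other epoxide hydrolases tested, AT3G51000 fell by 0.70 (0.45 after rescaling), a call that ended without wild type replicate 1 or 3 or overexpression replicate 1 or 2, and AT3G05600, AT4G02340 and AT4G15955 were not past.

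Of 9 glucosinolate breakdown genes tested 4 fell, ESM1 and NSP1 among the 12 largest falls, and no listed gene of glucosinolate synthesis was called. Glucosinolates are the mustard oil precursors of this plant family, and specifier proteins set which products form once myrosinases cleave them. ESM1, a modifier that favours isothiocyanates, had 39.5, 32.2 and 29.4 TPM in wild type and 1.55, 0.929 and 1.01 TPM in overexpression (log2 difference -4.01, SE 0.17, adjusted p = 7.8e-09). The nitrile specifier gene NSP1 had 34.7, 26.0 and 31.1 TPM against 3.39, 3.35 and 5.04 TPM (-2.69, SE 0.16, adjusted p = 4.8e-07). The epithiospecifier gene ESP had 22.8, 29.1 and 23.9 TPM against 8.91, 4.04 and 7.12 TPM (-1.82, adjusted p = 0.000162). PBP1, a lectin that binds the myrosinase PYK10, had 6.16, 4.59 and 5.52 TPM against 0.494, 0.946 and 0.357 TPM (-2.02, adjusted p = 0.000210). These 4 falls were past without each library in turn. Of 16 members 9 were tested, and the fifth call was a rise of NSP2, with 192, 228 and 147 TPM against 322, 378 and 296 TPM, which ended without wild type replicate 1 or 3 or overexpression replicate 1 or 2. NSP5, far the most abundant, was not past (3858, 4105 and 2808 against 3116, 3141 and 2800 TPM), nor were the myrosinases TGG1 and PEN2, and TGG2 was lower on deposited TPM only, and on both scales with the block. Of the 18 synthesis and transport genes tested 0 were past on both scales by limma (1 lower at an unadjusted p of 0.05, and MYB28 lower with the block), with a median of 0.01 after rescaling.

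The remaining falls of largest size came from several families. ATDR4, drought-repressed 4, a protease inhibitor-like protein, had 102, 107 and 86.0 TPM in wild type and 6.97, 9.40 and 11.0 TPM in overexpression (-3.31, SE 0.23, adjusted p = 1.9e-06). CORI3, a cystine lyase induced by the jasmonate mimic coronatine, had 234, 228 and 145 TPM against 30.5, 33.3 and 23.0 TPM (-2.75, SE 0.18, adjusted p = 1.3e-06). AT4G23670 (-2.50) of the polyketide cyclase and lipid transport superfamily went from 364 to 64.1 TPM. The peroxidase gene PER25 (-2.44), NAS1 (-2.40), the LEA3 family gene AT1G02820 (-2.35), the TRAF-like gene ZW9 (-2.22) and the cell wall enzyme gene XTH7 (-2.14) were all below 25 TPM in wild type. NAS1 makes nicotianamine, a chelator that carries iron and other metals, and had 24.0, 19.8 and 21.9 TPM against 3.95, 2.21 and 4.14 TPM. AT1G02820 fell although most listed LEA genes rose. The ribosomal RNA gene AT2G01020 (-2.86) had 2078, 4032 and 5216 TPM against 278, 1002 and 405 TPM, and the labels name both an mRNA and a total RNA library kit, and whether its level moved with the kit was not tested. All 12 of the largest falls were past without each library.

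Jasmonate-responsive storage proteins of vegetative tissue fell with CORI3. VSP1 had 778, 868 and 578 TPM in wild type and 246, 261 and 262 TPM in overexpression (-1.51, adjusted p = 4.1e-05), and VSP2 had 2369, 2476 and 1680 TPM against 935, 1015 and 950 TPM (-1.15, adjusted p = 0.000467). The other 12 of 15 jasmonate genes tested, including the synthesis genes LOX2 (-0.48) and AOS (-0.04) and the repressor genes JAZ1 (-0.13) and JAZ9 (-0.40), were not past on both scales. TCH4 (-1.03) and TCH2 (-0.88), a wall enzyme and a calmodulin-like protein induced by touch, fell and were past without each library. Among 13 clock genes the morning genes CCA1 (7.84, 11.0 and 7.36 against 3.08, 1.48 and 4.40 TPM), LHY (2.67, 3.38 and 1.75 against 0.710, 0.241 and 0.336 TPM) and PRR9 (-1.20) fell and 0 rose, with GRP7 past as higher with the block. The groups did not overlap for these 3 genes, and evening genes such as TOC1 (0.32) and GI (-0.01) were not past on both scales. After rescaling 4 of the 13 clock genes were past as higher, against 2.66% of all genes. The time of day of harvest is not given in the labels. Of 16 iron genes tested, FER2, the seed ferritin, rose (164, 182 and 137 against 238, 268 and 282 TPM, 0.71, adjusted p = 0.00498). The 3 falls were NAS1, BHLH100 (-1.10) and FER3 (-0.83), with OPT3 and FRO3 added by the block. The call of BHLH100 ended without wild type replicate 1 or overexpression replicate 2, and that of FER3 without any 1 library other than overexpression replicate 3. In the vacuole membrane the seed aquaporin gene TIP3;1 rose by 0.54 and the vegetative TIP1;2 fell by 1.12, and both were past without each library. TT7, a flavonoid hydroxylase, rose by 0.59 as the only call among 12 flavonoid genes tested.

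Markers of the other tissues in a silique were present in both groups. The 12 silique wall and dehiscence genes summed to 820 to 1179 TPM in wild type and 607 to 707 TPM in overexpression, without overlap, and IND, ALC and FUL fell (-0.83, -0.74 and -0.76). Each of those 3 calls ended without several single libraries, and 0 were left without wild type replicate 1 or 2 or overexpression replicate 1 and 1 without overexpression replicate 2 or 3. After rescaling the list's median was -0.17, near that of all genes. The 10 seed coat genes summed to 330 to 381 TPM and 245 to 265 TPM, with 0 past on both scales by limma (2 lower at an unadjusted p of 0.05). Their median after rescaling was -0.18. Of 8 endosperm markers EPR1 supplied nearly all of the sum, with 6246, 4003 and 3751 TPM in wild type and 4705, 8013 and 3742 TPM in overexpression, MINI3 and FIS2 were at 0 TPM in each library, and 0 of the 3 tested were past by limma, also at an unadjusted p of 0.05. The part of the silique wall sum in the falls of photosynthesis, VSP1, VSP2 and glucosinolate breakdown genes was not tested.

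Among 18 families and classes of genes, most of them taken from the deposited descriptions, 12 had a larger share called on both scales than the 7.27% of all genes. The families were added after values were known, so that count depends on how they were picked and carries no weight of its own. It includes nuclear ribosomal RNA, with 1 fall among 4 genes tested. Of 114 cytochrome P450 genes tested 14 rose and 7 fell (18.4%), against 1.67% and 5.59% of all genes, and 14 fell with the block. Of 51 lipid transfer and 2S-albumin-like protein genes 1 rose and 12 fell (25.5%), with a median of -0.47 after rescaling and 20 falls with the block. Of 78 AP2/ERF factor genes 6 rose and 11 fell (21.8%), and the fit without wild type replicate 3 had 11 calls and that without overexpression replicate 2 had 9.

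The 33 MADS-box factor genes gave 1 rise and 6 falls (21.2%). Fits without wild type replicates 1 to 3 had only 3, 3 and 4 calls among them, and the fit without overexpression replicate 2 had 1. The 29 cupin genes, which include the storage protein genes CRA1, AT1G03890, PAP85 and AT2G28490 but not CRB and CRC, gave 4 rises and 3 falls (24.1%), and 4, 3 and 3 calls without wild type replicate 1, wild type replicate 3 and overexpression replicate 2. GDSL lipase genes, 41 in all, gave 2 rises and 5 falls (17.1%), 9 falls with the block, and 3 calls without wild type replicate 1, 2 without wild type replicate 3, 4 without overexpression replicate 1 or 3 and 1 without overexpression replicate 2. Pectin lyase and methylesterase inhibitor genes, which act on the cell wall, gave 1 rise and 10 falls among 75 (14.7%), 3 and 17 with the block, and 7, 5 and 5 calls without wild type replicate 1, wild type replicate 3 and overexpression replicate 2. Below the share of all genes, genes described as ribosomal proteins gave 1 rise and 10 falls among 321 (3.43%), but 27 falls with the block. The fits without wild type replicate 1 or 3 had 3 calls each and that without overexpression replicate 2 had 2. NAC factor genes gave 0 calls by limma among 50 (4 lower at an unadjusted p of 0.05, and 1 lower with the block). Pentatricopeptide repeat genes gave 0 rises and 1 fall among 97 (1.03%).

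For several of the genes that rose, the knockout libraries lay on the other side of wild type. AT3G01345 averaged 0.434 TPM in the knockout, 8.49 in wild type and 85.9 in overexpression, EM6 17.7, 402 and 856 TPM, AT4G36600 1.58, 28.7 and 78.5 TPM, and XTH25 206, 632 and 1349 TPM. Light harvesting and photosystem transcripts took 3.15% to 3.72% of TPM in the knockout, 1.85% to 2.19% in wild type and 1.00% to 1.31% in overexpression. The 12S to 2S ratio was 0.531 to 0.630 in the knockout. The share of all storage proteins was not on the other side, with 32.2% to 33.1% in the knockout and 30.2% to 32.0% in wild type. In the knockout 12S globulins took 11.4% to 12.3%, below wild type. The 2S albumins took 19.6% to 21.4% there, above wild type as in overexpression. Other genes were lower than wild type in both lines, such as ATDR4 (9.89 TPM in the knockout), CORI3 (13.3) and PER25 (2.04), and PCR1 was higher in both (58.3 TPM in the knockout against 8.41 in wild type and 21.7 in overexpression). The 2 comparisons with wild type share its 3 libraries, so these values are set side by side without a test.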

How the data were processed

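RNA from siliques was sequenced in 9 libraries, 3 per genotype. Per the labels' protocols RNA came from a column kit and libraries from stranded mRNA and total RNA kits. The authors deposited TPM for 33602 genes, each library summing to 1000000, per the file headers, and the genome build was TAIR 10, per the submitters' processing notes. How reads were aligned and counted, whether strand was used, and the depth are not given in the sources used, so overlapping and near-identical genes are uncertain.

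The 16555 genes that averaged 1 TPM or more over 9 libraries were put on a log2 scale with a pseudocount of 1 TPM. They were tested with limma 3.58.1 (R 4.3.3; trend in the prior variance), 1 fit of 3 groups (6 residual degrees of freedom) and Benjamini-Hochberg adjustment at 0.05. Fold changes on this scale understate low genes. The fit was repeated after rescaling each library without 13 storage protein genes, and calls needed both. Positions and windows came from TAIR10.1, in which 97.7% of genes were found. Python 3.11.15, pandas 2.3.3, scipy 1.17.1 and matplotlib 3.10.9 served tables, exact tests and figures.

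Same-numbered wild type and overexpression libraries deviated together (correlations 0.127, 0.179 and 0.149, against -0.188 to 0.0122 for other pairs), and the labels give only the number, so a replicate block was fitted beside the fit by group alone.

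The rule named SCL15, the 12 rises and 12 falls of largest size with groups that did not overlap and at least 5 TPM in the higher group, 6 rises seen only after rescaling, the 6 most abundant genes, up to 4 called members per list, the 3 neighbours on each side of SCL15 and ATSEH, and family members. Further list members were named after their values were seen, mostly those kept without each library. The members, the 37 lists and the comparisons were chosen with earlier results of these data known. Gene families were taken from the deposited descriptions after values were known. Lists and families are described by counts and medians without a test. The fit by group was tested on simulated data without the rescaling. It recovered 8.96% of changes of 0.5 on the log2 scale, 73.1% of changes of 1 and 93.9% of changes of 2. A gene that was not past may therefore still differ by a small amount. Scaling, filters, pseudocounts, the block and leaving out each library were the alternatives.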

Additional observations from a re-analysis of the deposited data

How the results depend on the processing

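On deposited TPM 4149 genes were called, 278 higher and 3871 lower. The count was 1366 (440 higher, 926 lower) after rescaling without storage protein genes, 1158 (529 and 629) when oil body and LEA genes were left out as well, 1133 (539 and 594) with median-ratio scaling and 1120 (543 and 577) with quantile normalization. The cause was not tested. With the replicate block and rescaling it was 2172 (627 and 1545). Leaving out 1 library gave 2152 to 4152 calls, 142 to 248 higher and 2010 to 3934 lower. Alternatives for the calls on both scales were added after the data were seen. Fits without 1 library had 135 to 246 rises, against 277, and 402 to 906 falls, against 926. Both counts moved by over 1.5 times without wild type replicate 1 or 3 or overexpression replicate 2. Falls on both scales were 1545 with the replicate block and 613 without the abundance trend. SCL15 stayed past under each alternative run, and 871 of the 1203 calls on both scales were also past with median-ratio scaling. The replicate block ended no call on both scales of a gene named in the report and the calls it added among the named genes are given there. Depth is unknown, so counting error could not be given, and with 3 libraries in each group exact tests cannot reach 0.05.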
